A study of Mus musculus with 9 samples.

Results

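The colon of mice with colitis was compared between animals that had received human umbilical cord tissue-derived mesenchymal stem cells (UC-MSC) and animals that had received phosphate-buffered saline alone (control). The comparison covered 13537 protein-coding mouse genes, out of 22571 protein-coding genes and 38087 rows in the table. A gene was included when the mean of its UC-MSC and control levels was at least 10 normalized reads, and 9034 protein-coding genes were below that minimum. The animals were male C57BL/6 mice aged 10 to 12 weeks, a strain with an intact immune system. All of them, controls included, drank dextran sulfate sodium (DSS), a detergent-like polymer that injures the colonic epithelium. Cells or saline were injected into a vein, and the medial colon was taken the following day, while DSS was still being given. Each group had 3 libraries, and a further 3 came from mice given human adipose tissue-derived MSCs (AD-MSC), whose values are set beside the others here. RNA of the injected human cells was not analysed here.

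For each gene the table gave 1 value per group, the authors' mean of log2 normalized reads over its libraries. A level below is such a mean on the linear scale, in normalized reads, and a difference is UC-MSC minus control on the log2 scale, so that 1 is 2-fold. The spread between mice was not in the values used, so no difference has a replicate check, and no test or standard deviation was possible. Counting error alone could be given a lower limit. Its median was 0.11 on the log2 scale, and the 95% intervals in brackets cover counting error only. The raw group means summed to 7.30e+06 reads for control, 5.03e+06 for UC-MSC and 8.22e+06 for AD-MSC.

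Mesenchymal stem cells are stromal cells that can be grown from several tissues and that release factors acting on immune cells, vessels and epithelium. In DSS colitis the epithelial lining is lost in patches, bacteria reach the tissue below, and neutrophils and monocytes enter from blood. Repair then depends on fibroblasts and vessels that lay down and remodel matrix, and on crypt cells that divide and spread over the wound. The genes are described below in that order, from immune cells to stroma, epithelium, stress responses, cell division and metabolism.

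Promoter sequence is shown for 4 groups of genes that have a well-known promoter element, each for the reason given with it. Letters were searched on both strands in the 300-base RefSeq promoters of GRCm38.p6, which run from 250 bases before to 50 bases after each gene's start. The share of promoters with a match is a description, and it shows no binding. Metalloproteinases, which cut matrix proteins, are shown because they were among the genes furthest above control. The capitals mark TGANTCA, the letters bound by the transcription factor AP-1. These letters were in 5 of the 16 promoters of the metalloproteinase list that matched the reference (31.2%) and in 8.97% of the promoters of all 27025 genes. They ended 29 bases before the start of *Mmp13* (chr9:7272459-7272505, plus strand), 57 bases before that of *Mmp10* (chr9:7502259-7502305, plus strand) and 40 bases before that of *Mmp3* (chr9:7445756-7445802, plus strand). These genes lie close together on chromosome 9, so the share above rests partly on neighbouring genes.
Mmp13: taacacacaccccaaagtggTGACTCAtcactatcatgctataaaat
Mmp10: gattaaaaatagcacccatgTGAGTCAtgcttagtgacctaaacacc
Mmp3: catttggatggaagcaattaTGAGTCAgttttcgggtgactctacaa

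Chaperone genes are shown because several of them were among the genes furthest below control. The capitals mark the letters GAA, TTC and GAA with 2 bases of any kind between each, the heat shock element bound by heat shock factor. A match was found in 4 of 24 heat shock promoters (16.7%) and in 0.662% of all promoters. The 4 genes were *Hspd1*, *Hspe1*, *Hsph1* and *Chordc1*. The chaperones furthest below control, *Hspa1a*, *Hspa1b* and *Hspa1l*, were not among these 4. Of 30 chaperone genes compared, 24 matched the reference. *Hspd1* and *Hspe1* encode the mitochondrial chaperonin and its partner and are transcribed away from each other. Their matches lay in the same stretch of DNA, read from opposite strands (chr1:55088039-55088091, minus strand, and chr1:55088044-55088096, plus strand).
Hspd1: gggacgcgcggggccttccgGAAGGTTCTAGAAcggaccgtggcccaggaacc
Hspe1: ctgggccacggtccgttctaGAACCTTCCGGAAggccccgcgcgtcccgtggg

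Genes of mitosis are shown because every gene of that list was lower in UC-MSC. The capitals mark TTTGAA or its reverse complement TTCAAA, the letters of the cell cycle genes homology region (CHR), through which genes of late cell cycle stages are repressed or activated. They were in 19 of 26 mitosis promoters (73.1%), in 3 of 23 DNA replication promoters and in 20.2% of all promoters. The matches shown are those of the motor gene *Kif11* (chr19:37376343-37376381, plus strand), the anaphase activator *Cdc20* (chr4:118437344-118437381, minus strand) and the proliferation marker *Mki67* (chr7:135716452-135716497, minus strand).
Kif11: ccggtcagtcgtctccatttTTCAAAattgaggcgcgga
Cdc20: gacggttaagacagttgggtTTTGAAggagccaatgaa
Mki67: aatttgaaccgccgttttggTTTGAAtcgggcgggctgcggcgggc

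Interferon-stimulated genes are shown as a group that was higher in both MSC groups. The capitals mark a pair of TTTC blocks with 2 bases between, which read as GAAA blocks on the other strand, the core letters of the interferon-stimulated response element. The letters were, on either strand, in 15 of 21 promoters of the list (71.4%) and in 3.99% of all promoters. The examples are the guanylate-binding protein genes *Gbp2* (chr3:142620584-142620633, plus strand) and *Gbp3* (chr3:142559985-142560034, plus strand) and the antiviral gene *Ifit1* (chr19:34640784-34640833, plus strand).
Gbp2: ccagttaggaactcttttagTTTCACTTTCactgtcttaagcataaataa
Gbp3: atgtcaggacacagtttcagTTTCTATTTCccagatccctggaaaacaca
Ifit1: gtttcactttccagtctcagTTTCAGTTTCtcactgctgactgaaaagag

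Across all genes compared, 6583 (48.6%) were higher and 6954 (51.4%) lower in UC-MSC, with a median difference of -0.01 and quartiles of -0.28 and 0.31. At 2-fold, 635 genes (4.69%) were higher and 323 (2.39%) lower, so that 66.3% of these genes were higher. At 4-fold, 52 were higher and 32 lower. Of the 2-fold genes, 620 and 308 had reads in all 3 libraries of both groups, and the others have no counting interval. A 2-fold difference was more common among genes with few reads. It was reached in the higher direction by 14.6% of genes with a mean of 10 to 20 normalized reads and by 1.54% of those between 500 and 1000. Beyond that the share was larger again, at 2.32% between 1000 and 5000 and 4.76% of the 105 genes from 5000 up. Counts for the gene lists below are read against 48.6%, 4.69% and 2.39%. Of 68 lists, 65 had at least 3 genes compared, and 22 of them had a median above 0.5 and 6 a median below -0.5.

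**Figure D1:**
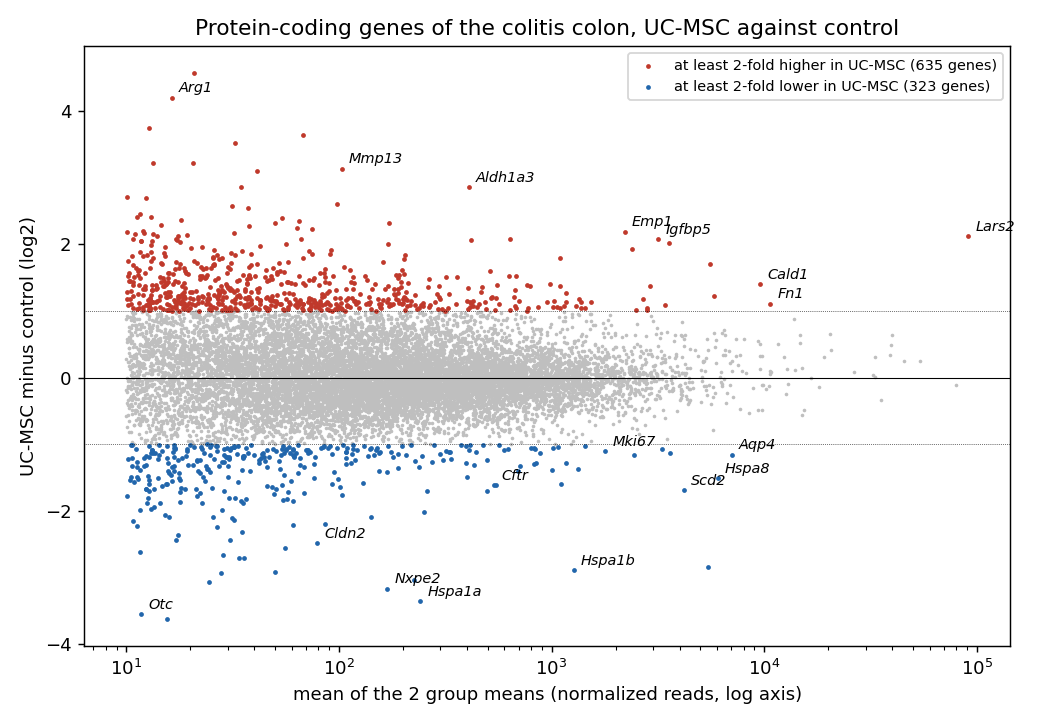
Each point is 1 of 13537 protein-coding genes, with the mean of the control and UC-MSC levels on a log axis (normalized reads) and the log2 difference on the vertical axis. Dotted lines mark 2-fold, which 635 genes reached in the higher direction (red) and 323 in the lower direction (blue), and the scatter is widest at low read numbers.

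Among genes with at least 500 normalized reads on average, where counting error is small, the 15 furthest above control included genes of epithelium, of stroma and of insulin-like growth factor binding. *Emp1*, a membrane protein gene of epithelial cells, had 793 normalized reads in control against 3624 in UC-MSC, 4.57-fold higher (4.38 to 4.77), and 843 in AD-MSC. *Serpina3n*, a secreted protease inhibitor of the acute phase, had 243 in control against 1027 in UC-MSC, 4.22-fold higher. *Igfbp5* and *Igfbp4*, which bind insulin-like growth factors, were 4.22-fold and 2.64-fold higher, at 5129 and 1423 in UC-MSC. For each of these 4 genes UC-MSC was above both other groups. *Mgp*, an inhibitor of calcification made by stromal cells, was 3.02-fold higher. *Anxa8*, an annexin, had 615 in control, 1587 in UC-MSC and 347 in AD-MSC, so the MSC groups lay on opposite sides of control. *Lars2*, the mitochondrial leucyl-tRNA synthetase, had 34029.9 in control against 148245 in UC-MSC. Whether all reads assigned to it came from the gene itself was not tested.

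The 15 furthest below control at the same read numbers included chaperones, described further on, and genes of metabolism and transport. *Scd2*, a fatty acid desaturase, had 6379 in control against 1979.6 in UC-MSC, 3.22-fold lower (3.12 to 3.33). *Sult1a1*, a sulfotransferase that conjugates phenols, was 3.04-fold lower, with 825 in control, 271 in UC-MSC and 847 in AD-MSC. *Slc37a2*, a sugar phosphate transporter, was 2.61-fold lower, and *Hao2*, a peroxisomal hydroxyacid oxidase, 2.59-fold lower. These enzyme and carrier genes were taken from the same ranking by difference, so similar factors follow from that choice. *Tfrc*, the transferrin receptor for iron uptake, had 1192 in control against 491 in UC-MSC, 2.43-fold lower. *B3gnt7*, a glycosyltransferase, was 2.18-fold lower in UC-MSC, at 2265, and stood at 2224 in AD-MSC. *Zan*, annotated for a sperm protein, was 2.45-fold lower.

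**Figure D2:**
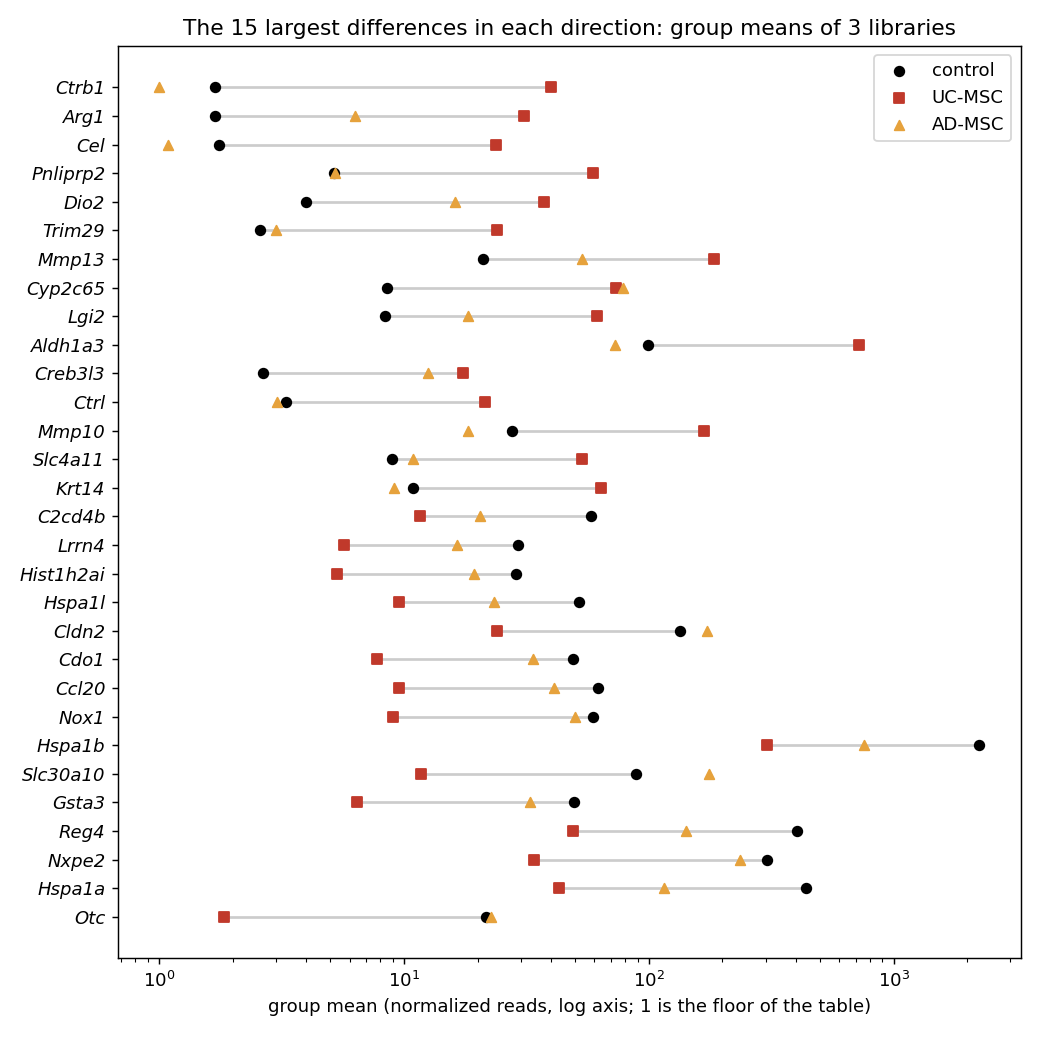
Group means in normalized reads (log axis) of the 15 genes furthest above and the 15 furthest below control, for control (black circles), UC-MSC (red squares) and AD-MSC (orange triangles). Many of the genes furthest above control start from few reads (*Ctrb1* and *Arg1* at 1.69 in control), whereas *Hspa1b*, at 2241 in control, is the most deeply read of those below it.

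Of these 30 genes, 8 had a library below 1 normalized read, which the table sets to 1. Their folds depend on that floor and have no counting interval. With a pseudocount of 10 the log2 difference of *Ctrb1* went from 4.57 to 2.10 and that of *Otc* from -3.55 to -1.41. The 8 genes were *Ctrb1*, *Arg1*, *Cel*, *Trim29*, *Creb3l3* and *Ctrl* in control, and *Otc* and *Lrrn4* in UC-MSC. Genes not described elsewhere included *Lgi2*, a secreted leucine-rich protein, with 8.40 in control, 61.2 in UC-MSC and 18.2 in AD-MSC. *Slc4a11*, a membrane transporter, had 8.94 in control against 53.6 in UC-MSC. *Creb3l3*, a membrane-bound transcription factor of lipid metabolism, had 2.66, 17.4 and 12.6 in control, UC-MSC and AD-MSC. In the lower direction, *Nxpe2* had 304 in control against 33.9 in UC-MSC but 236 in AD-MSC. *Slc30a10*, which exports manganese, had 88.8, 11.7 and 175, and *C2cd4b* had 58.3, 11.7 and 20.4. AD-MSC was thus close to control or beyond it for *Nxpe2* and *Slc30a10* and between the other groups for *C2cd4b*. Of the 59 genes named by size of difference, 21 overlap another gene of the table. Use of strand in counting is not given in the sources used here. Overlapping genes cannot therefore be told apart.

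Genes of myeloid cells stood above control as a group in UC-MSC. Of 23 monocyte and macrophage genes, 22 were higher, 16 of them at least 2-fold, with a median difference of 1.18 (AD-MSC minus control 0.02). In bulk tissue, more cells of a type and more RNA per cell cannot be told apart. *Itgam*, the CD11b integrin of myeloid cells, had 111 normalized reads in control, 267 in UC-MSC and 97.4 in AD-MSC. *Csf1r*, the receptor on which macrophages depend for survival, had 199, 390.1 and 195 in the same order. The complement starter genes *C1qa*, *C1qb* and *C1qc*, made by tissue macrophages, were 2.31-fold, 2.27-fold and 2.07-fold higher. Genes of recruited monocytes and of resident cells were both higher. *Cx3cr1*, the fractalkine receptor, had 24.9 in control against 68.6 in UC-MSC, and *Ly6c2*, a marker of blood monocytes, had 6.31 and 16.6. *Emr1*, a marker of mature mouse macrophages, was at 81.4 and 96.6. *Cd14*, the endotoxin co-receptor, was the 1 gene of the list that was lower, at 232 in control against 173 in UC-MSC.

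All 9 genes compared of alternatively activated macrophages, the form linked to repair, were higher, with a median difference of 0.99. When genes below the minimum were counted, 1 of 13 was lower, with a median of 0.66. *Mrc1*, the mannose receptor, had 272 in control against 662 in UC-MSC, 2.43-fold higher (2.24 to 2.64). The scavenger receptor genes *Stab1* and *Cd163* were 2.16-fold and 2.09-fold higher. *Retnla*, another gene of this state in mice, was 1.55-fold higher. *Arg1*, arginase, had 1.69 in control, 31.1 in UC-MSC and 6.29 in AD-MSC, and it stands far from the other 8 genes compared.

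Of 20 neutrophil genes only 8 reached the minimum, and 7 of these were higher, 6 at least 2-fold, with a median difference of 1.57 (AD-MSC -0.36), or 0.98 with a pseudocount of 10. *Cxcr2*, the receptor that guides neutrophils into tissue, had 8.31 in control against 25.7 in UC-MSC. *Mmp9*, a gelatinase stored in neutrophil granules, had 11.8 and 33.5. *Ltf*, lactoferrin of the specific granules, had 11.4 and 39.8. The primary granule genes *Elane* and *Mpo* were at or near the floor, with *Elane* listed at the floor of 1 in each group and *Mpo* at 1.65 in control against 1.11 in UC-MSC. The summed level of all 20 genes was 903 in control and 1089 in UC-MSC, of which *Cd177* alone was 605 and 364. *Cd177* was the lower gene among the 8 compared. Of 9 eosinophil genes, *Cd300lf* alone reached the minimum. Of 12 mast cell genes 3 did, all higher (*Kit*, *Hdc* and *Gata2*). Counting those below the minimum, 6 mast cell genes were higher and 5 lower, with a median of 0.12. The dendritic cell list had a median difference of 0.41, with the growth factor receptor *Flt3* 2.53-fold higher, at 10.7 and 27.0. Genes of antigen presentation by MHC class II had a median difference of 0.30, with 8 of 9 higher and none at 2-fold.

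B cell genes were lower, and T cell genes were divided. All 14 B cell genes compared were lower in UC-MSC, 6 of them at least 2-fold, with a median difference of -0.98 beside -2.71 in AD-MSC. *Ms4a1*, which encodes the B cell surface protein CD20, had 34.2 in control, 15.4 in UC-MSC and 6.34 in AD-MSC, so UC-MSC lay between control and AD-MSC. The summed level of the B cell genes compared was 511 in control and 271 in UC-MSC. Of 15 T cell genes, 8 reached the minimum, and 5 of these were lower, beside 51.4% of all genes compared. The 8 had a median difference of -0.49, with none at 2-fold. Counting those below the minimum, 10 of 15 were lower, with a median of -0.65. *Cd3d* and *Cd3g*, subunits of the T cell receptor complex whose mean was below the minimum, differed by -2.01 and -1.36. *Lck*, a kinase of the T cell receptor, had 19.8 in control against 10.8 in UC-MSC, while *Cd4*, which some macrophages also carry, had 47.2 and 77.3. *Thy1*, carried by fibroblasts as well as T cells, had 66.0 and 131. *Cd247* was the other higher gene of those compared, at 27.5 and 34.0. Plasma cell genes had a median difference of -0.12, with 4 of 6 lower.

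Signals between immune cells differed gene by gene. Of 19 chemokines of monocytes and lymphocytes, 13 were higher and 6 lower, with a median difference of 0.41. *Ccl20*, which draws CCR6-bearing lymphocytes to the epithelium, had 62.0 in control, 9.55 in UC-MSC and 40.9 in AD-MSC. *Ccl5*, a T cell chemokine, had 32.3, 10.1 and 33.8. Both were far lower in UC-MSC than in either other group. The opposite held for *Ccl8* at 41.0, 122 and 52.7, and for *Ccl11*, eotaxin, at 81.3, 214 and 94.2. *Cxcl10*, an interferon-induced chemokine, was 1.86-fold lower, and *Ccl28*, made by colonic epithelium for plasma cells, was 1.76-fold lower at 802.

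All 10 genes of the IL-6 family and STAT3 were higher (8 when groups were scaled to equal totals), with a median difference of 0.43. *Il11*, a cytokine of injured stroma, had 5.86 in control, 30.2 in UC-MSC and 3.86 in AD-MSC. The receptor genes *Osmr* and *Il6st* of this family were 1.86-fold and 1.68-fold higher, and the feedback inhibitor *Socs3* stood at 393 and 432. In the IL-1 and IL-18 family 7 of 9 genes were higher. *Il33*, an alarmin of stroma and epithelium, had 50.6 in control against 112 in UC-MSC, and its receptor *Il1rl1* had 68.1 and 197. Ligand and receptor were therefore both higher in UC-MSC, while AD-MSC was below control for both, at 35.8 and 31.1. *Il18* and its receptor *Il18r1* were both lower, 1.44-fold and 2.37-fold. Targets of TNF and NF-kB had a median difference of 0.11, with none of 17 at 2-fold. *Ptgs2*, the inducible cyclooxygenase, and *Vcam1*, an adhesion molecule of vessels, were 1.86-fold and 1.82-fold higher, and the inhibitors *Nfkbia* and *Tnfaip3* were 1.36-fold and 1.34-fold lower.

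Interferon-stimulated genes, whose promoters are shown above, were higher in 23 of 27 cases with a median difference of 0.38, beside 0.45 in AD-MSC. *Gbp2* had 659 in control, 1376 in UC-MSC and 1236 in AD-MSC, and *Ifit1* had 91.5, 163 and 190.1. Genes with the letters of the interferon element had a median difference of 0.37 and those without a median difference of 0.34. Complement genes had a median difference of 0.69, with 14 of 17 higher. The anaphylatoxin receptors *C3ar1* and *C5ar1*, carried by myeloid cells, were 3.47-fold and 2.73-fold higher. *Cd55*, which shields host cells from complement, had 423 in control against 1105 in UC-MSC. All 18 coagulation and fibrinolysis genes compared were higher, with a median difference of 0.81, and 1 of 20 was lower with those below the minimum. *F3*, tissue factor, which starts clotting, had 419.8 and 849. *Procr*, the endothelial protein C receptor, which acts against clotting, was 2.45-fold higher, so genes of both directions of the cascade were higher.

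Most matrix genes stood above control. Of 20 genes of fibrillar collagens and their cross-linking, 18 were higher and 10 at least 2-fold, with a median difference of 0.94. *Lox*, which cross-links collagen, had 38.6 normalized reads in control, 145 in UC-MSC and 58.3 in AD-MSC, 3.76-fold higher than control (3.07 to 4.61). *Serpinh1*, the collagen chaperone, had 714 and 1467, and *Col5a1*, which starts collagen fibrils, had 633 and 1412. Members of this list lay between -0.47 and 1.91, with *Lox* the highest. All 19 basement membrane genes compared were higher, with a median difference of 0.91, and 2 of 21 were lower with those below the minimum. *Lama3*, a laminin chain under epithelium, had 489.8 in control against 1694 in UC-MSC, 3.46-fold higher. The collagen IV genes *Col4a1* and *Col4a2*, which lie head to head in the genome, were 2.13-fold and 2.28-fold higher. The laminin chains *Lamb1* and *Lamc1* were 2.20-fold and 2.10-fold higher.

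Among matricellular proteins and proteoglycans, 21 of 24 genes were higher, with a median difference of 0.78. *Vcan*, versican, had 309 in control, 805 in UC-MSC and 258 in AD-MSC, and *Fn1*, fibronectin, had 6763, 14586 and 7052. *Bgn* and *Dcn*, small proteoglycans that bind collagen, were 2.20-fold and 2.07-fold higher. Enzymes that cut matrix were higher along with it. Of 22 metalloproteinase and inhibitor genes, 21 were higher and 11 at least 2-fold, with a median difference of 1.06 (AD-MSC -0.10). *Mmp13*, a collagenase, had 21.1 in control, 185 in UC-MSC and 53.2 in AD-MSC. *Mmp10* and *Mmp3*, stromelysins, had 168 and 320.2 in UC-MSC, against 27.6 and 89.1 in control. *Mmp2*, the gelatinase of fibroblasts, had 333 and 759, and *Mmp11*, stromelysin 3, had 9.56 and 32.2. *Timp1*, the inducible inhibitor, stood at 22.5, 90.1 and 11.3 in control, UC-MSC and AD-MSC. The 5 genes with the AP-1 letters TGANTCA were *Mmp3*, *Mmp10*, *Mmp12*, *Mmp13* and *Adam19*. Their median was 1.85, and that of the matched genes without the letters was 0.74. *Mmp3*, *Mmp10* and *Mmp13* are the neighbouring genes whose promoters are printed above.

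**Figure D3:**
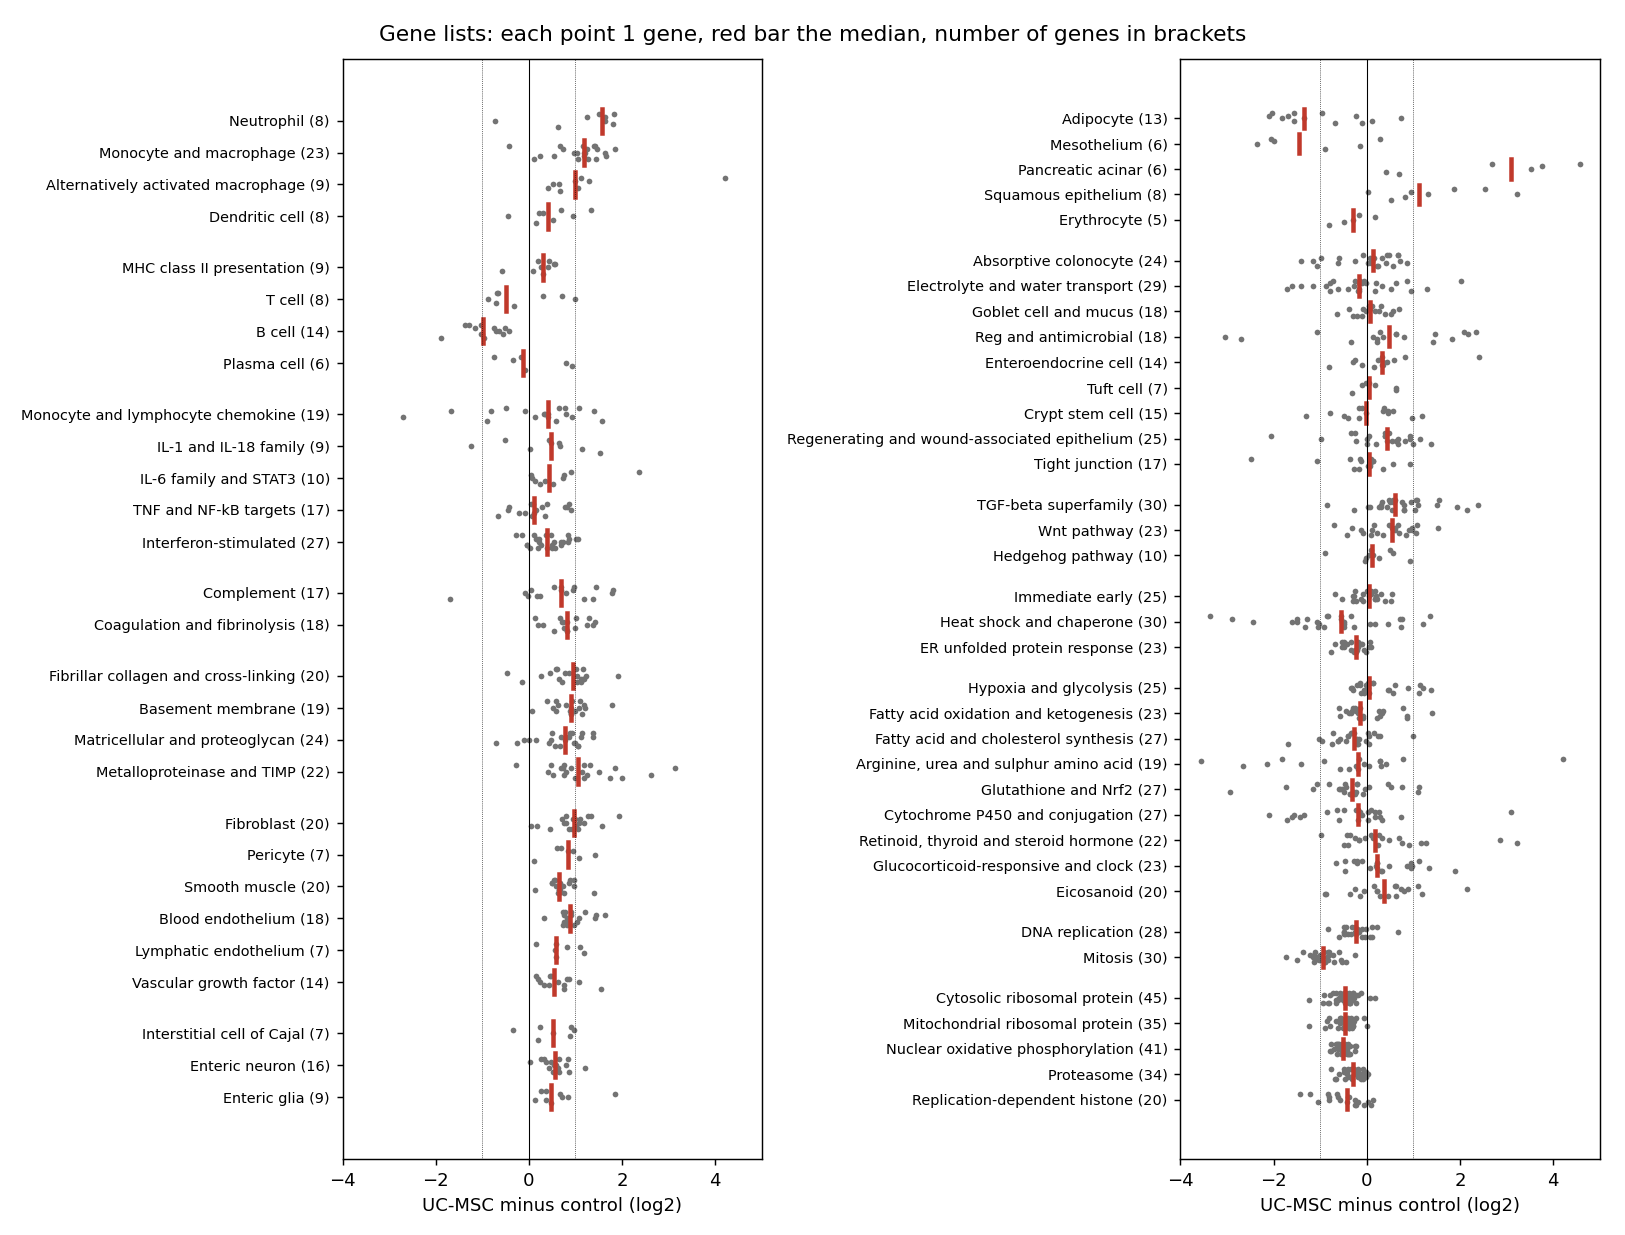
Log2 differences (UC-MSC minus control) of the genes of each list with at least 5 genes compared, 1 point per gene, with the median as a red bar and the number of genes in brackets. Myeloid, matrix, stromal, vessel and nerve lists have medians to the right of 0, and the B cell (-0.98), adipocyte (-1.35), mitosis (-0.94) and oxidative phosphorylation (-0.51) lists lie to the left.

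Markers of most cell types of the wall outside the epithelium were higher. All 20 fibroblast genes compared were higher (19 with equal totals), and 1 of 21 was lower with the gene below the minimum. The genes compared had a median difference of 0.97 and a summed level of 7729 in control and 14954 in UC-MSC. *Pdgfra*, the receptor that marks fibroblasts, had 685 in control against 1645 in UC-MSC, 2.40-fold higher (2.28 to 2.53). *Pi16*, of fibroblasts around vessels, was 2.95-fold higher, and *Rspo3*, which supports crypt stem cells through Wnt, 2.12-fold higher. All 20 smooth muscle genes were higher with a median difference of 0.64, although *Cald1* alone reached 2-fold. *Des*, desmin, had 9752 in control, 17865 in UC-MSC and 11921 in AD-MSC, and *Myocd*, the regulator of smooth muscle genes, had 130.3, 255 and 142. The summed smooth muscle level was 122916 and 192587. In AD-MSC all 20 were also higher than in control, with a median difference of 0.14. All 7 pericyte genes compared were higher, led by the channel subunits *Kcnj8* and *Abcc9* at 2.69-fold and 2.09-fold. With those below the minimum, 1 of 10 was lower.

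All 18 genes of blood endothelium were higher, with a median difference of 0.88, and 6 were at least 2-fold higher. *Selp*, P-selectin, which slows leukocytes on activated vessels, had 41.8 in control, 129 in UC-MSC and 21.9 in AD-MSC. *Cdh5* and *Pecam1*, which join endothelial cells, were 1.87-fold and 1.87-fold higher. *Darc*, the chemokine-binding receptor of venules, was 2.29-fold higher and *Emcn*, endomucin, 2.73-fold. All 14 vascular growth factor genes were higher, with a median difference of 0.55. *Pdgfc* had 19.5 and 56.5, *Hgf*, hepatocyte growth factor, had 63.6 and 134, and *Vegfa* had 319 and 443. All 7 lymphatic genes were higher, with the fate regulator *Prox1* at 46.7 and 100.4.

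All 16 enteric neuron genes (15 with equal totals) and all 9 enteric glia genes compared were higher, with medians of 0.56 and 0.48. With those below the minimum, 1 of 11 glia genes was lower. *Gfap*, the filament of reactive glia, had 32.4 in control, 118 in UC-MSC and 41.8 in AD-MSC, 3.62-fold higher than control (2.90 to 4.53). *Sox10*, which defines glia, had 23.1 and 29.7, so *Gfap* stood well apart from the lineage marker. *Nos1*, of inhibitory motor neurons, was 1.73-fold higher, *Ret*, the receptor of neuron precursors, 1.83-fold, and *Gal*, a neuropeptide, 2.29-fold. Interstitial cells of Cajal, the pacemaker cells, had a median difference of 0.51, but their channel *Ano1* was lower at 843 and 661.

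Genes of tissues around or beside the colon also differed. Adipocyte genes were lower in 11 of 13 cases, 7 at least 2-fold, with a median difference of -1.35 in UC-MSC (-0.69 over the members with a mean of at least 50) and -0.96 in AD-MSC. *Adipoq*, adiponectin, had 89.1 in control, 30.4 in UC-MSC and 32.5 in AD-MSC, and *Car3*, abundant in fat, had 404, 99.5 and 135. Control was thus the highest group for both. Mesothelial genes were lower in 5 of 6, with *Upk3b* at 45.0 and 11.4 and *Msln* at 24.5 and 5.87. All 20 pancreatic acinar genes had higher values in UC-MSC, counting those below the minimum. In control 10 of them were listed at the floor, and the same 10 stood between 1.70 and 17.95 in UC-MSC. *Ctrb1*, chymotrypsinogen, had 1.69 in control against 40.0 in UC-MSC, and *Pnliprp2*, a lipase, had 5.19 and 59.4, while AD-MSC was at the floor for the former and at 5.22 for the latter. All 8 squamous epithelial genes compared were higher. Counting the 13 below the minimum, of which 4 were at the floor in control, 20 of 21 were higher, with *Krt14* at 10.9, 63.8 and 9.14 in control, UC-MSC and AD-MSC and *Crnn* at 13.4, 49.0 and 3.39. Erythrocyte genes had a median difference of -0.29. What part different amounts of attached or neighbouring tissue had in any result was not tested.

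The tissue had the marker genes of colon in both groups. *Muc2*, the mucin of goblet cells, had 17012 in control against 21137 in UC-MSC, and *Car1*, a colonic carbonic anhydrase, had 2526 and 4015. *Epcam* and *Cdh1*, which mark all epithelium, had 10305 and 13505 in control and 11004 and 14559.5 in UC-MSC. They differed by 0.09 and 0.11, beside a median difference of 0.97 for fibroblast genes. The 24 genes of absorptive colonocytes had a median difference of 0.13 and the 18 of goblet cells a median difference of 0.08, with none of the goblet cell genes at 2-fold. Of the Hox genes, which encode position along the body axis, 12 of 21 were higher with a median difference of 0.13. *Hoxd13* had 91.0 in control, 174 in UC-MSC and 26.5 in AD-MSC, and *Hoxb13*, a gene of the distal colon, had 1414, 832 and 739. The Hox genes were looked up after other values had been seen.

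Genes of salt and water transport were lower in 20 of 29 cases, with a median difference of -0.17. *Cftr*, the chloride channel that drives secretion, had 807 in control, 264 in UC-MSC and 934 in AD-MSC, 3.06-fold lower in UC-MSC (2.80 to 3.35). *Kcne3* and *Kcnq1*, subunits of the potassium channel that supports this secretion, were 3.26-fold and 1.83-fold lower. *Slc9a3*, the sodium-proton exchanger of sodium absorption, had 1008, 380.4 and 1346. Genes of secretion and of absorption were thus both lower in UC-MSC, while AD-MSC was above control for *Cftr* and *Slc9a3*. The water channels *Aqp4* and *Aqp8* were 2.23-fold and 1.53-fold lower, and *Aqp1*, of vessels, was 1.55-fold higher. The chloride exchanger *Slc26a3* was close to control, at a log2 difference of -0.25. *AI747448* and *Clca6*, of the family of calcium-activated chloride channel regulators, were 4.06-fold and 1.93-fold higher, and since they resemble each other in sequence their reads may be split between them.

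**Figure D4:**
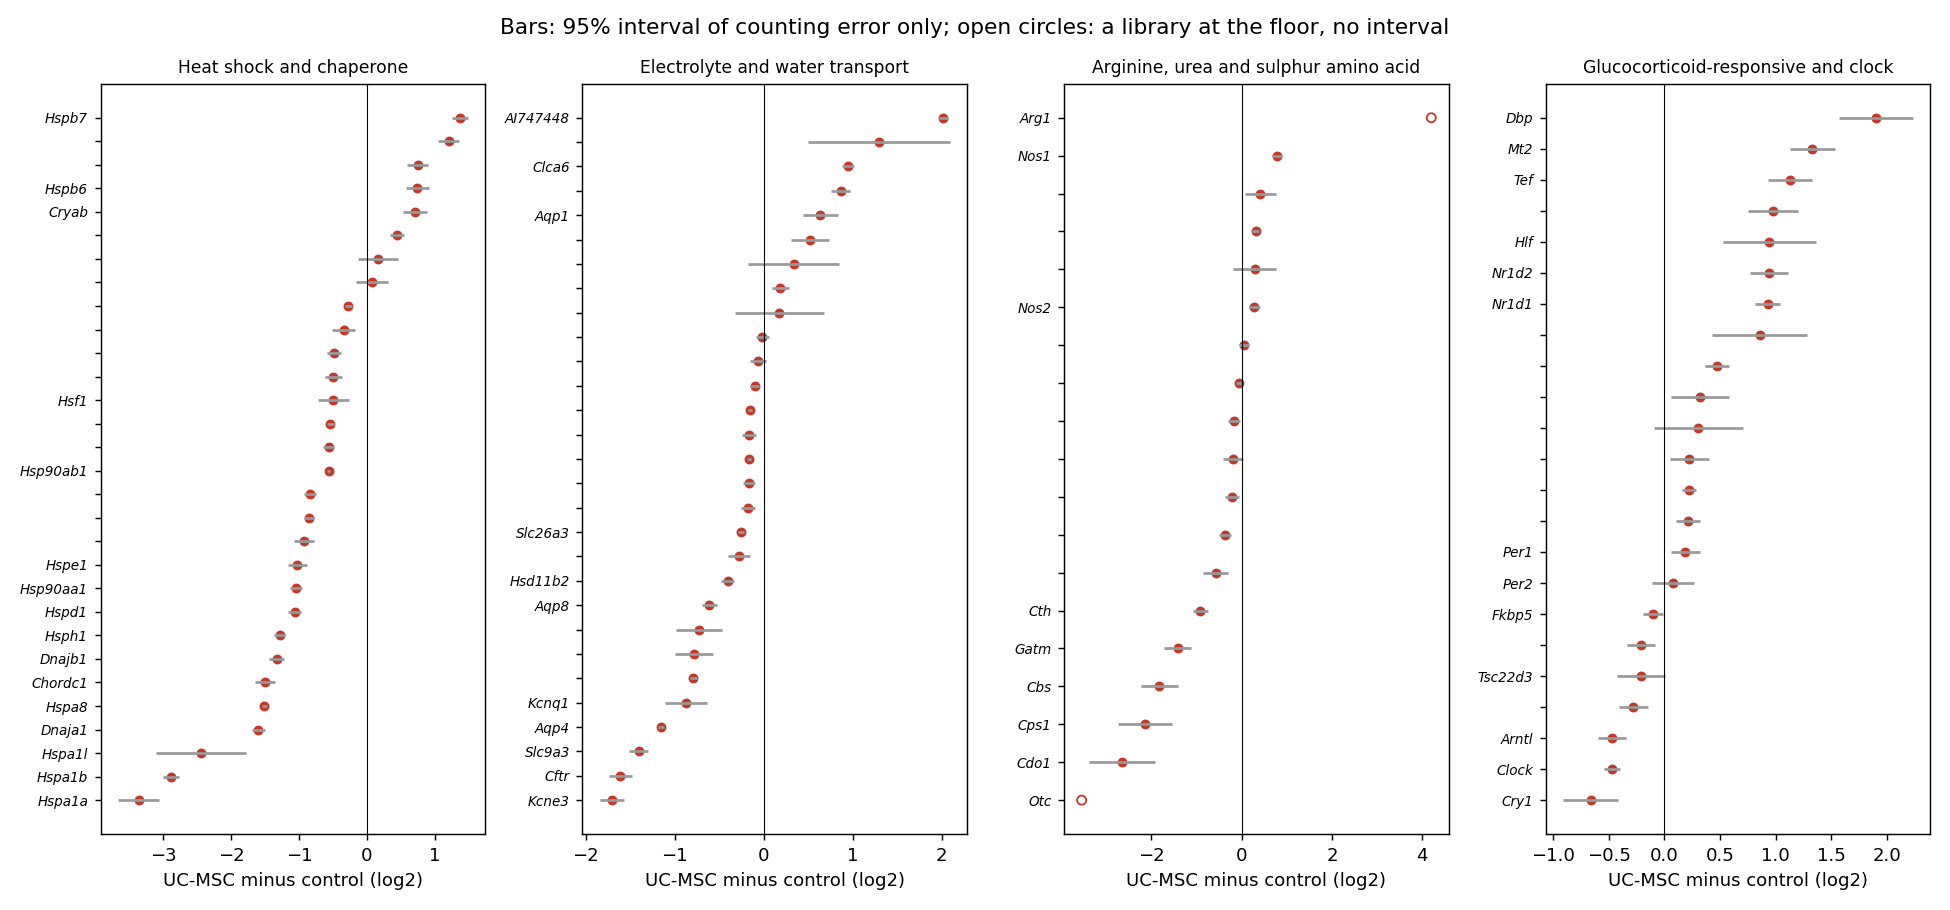
Log2 differences (UC-MSC minus control) of every gene compared in 4 lists, ordered by difference, with bars for the 95% interval of counting error alone and open circles where a library was at the floor; genes named in the text are labelled. *Hspa1a*, *Hspa1b* and *Hspa1l* lie below all other chaperones, *Kcne3*, *Cftr* and *Slc9a3* end the transport list, *Arg1* and *Otc* lie at opposite ends of their list, and *Dbp* and *Tef* are among the highest of the clock list.

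Barrier and defence genes of the epithelium were split. Of 18 Reg and antimicrobial genes, 6 were higher and 3 lower by 2-fold or more, with a median difference of 0.49. *Reg4*, of secretory cells deep in colonic crypts, had 402 in control, 49.0 in UC-MSC and 142 in AD-MSC. *Nox1*, the superoxide-producing oxidase of colonic epithelium, had 59.0, 9.07 and 50.1, and *Wfdc2*, a protease inhibitor, was 2.10-fold lower. Among the higher genes, *Saa3*, an acute phase protein, had 25.5 in control against 108 in UC-MSC, *Chi3l1* had 4.39 and 19.7, and *Slpi*, a protease inhibitor, had 115, 307 and 24.4 with AD-MSC below control. *Reg3b* and *Reg3g* were 5.09-fold and 2.75-fold higher, and the former's fold depends on the floor. Of 17 tight junction genes, 2 were at least 2-fold lower. They were *Cldn2*, which forms cation and water pores, at 134, 24.0 and 172, and *Cldn15*, also a cation pore, at 132, 63.4 and 152. *Cldn4*, a sealing claudin, was 1.90-fold higher, and the scaffold *Tjp1* was at 2112 and 2694.

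Stem cell genes of the crypt had a median difference of -0.01, with 7 higher and 8 lower. *Myb*, a regulator of crypt progenitors, had 614 in control against 248 in UC-MSC with 609.9 in AD-MSC, and *Rnf43*, which removes Wnt receptors, was 1.73-fold lower. *Prom1* was 2.28-fold higher. Genes of regenerating epithelium had a median difference of 0.43 beside -0.57 in AD-MSC, with 19 of 25 higher. *Ereg*, epiregulin, had 432 in control, 687 in UC-MSC and 262 in AD-MSC, and *Ankrd1*, a target of YAP, had 7.34, 19.2 and 5.02. In both the order of the groups from the highest was UC-MSC, control, AD-MSC. Among enteroendocrine genes, 10 of 14 were higher, with the hormone *Cck* at 4.17 and 22.1 and *Insl5*, a hormone of distal colon, lower at 465 and 264. Tuft cell genes had a median difference of 0.05.

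Growth factor pathways of the mesenchyme were higher. Of 30 TGF-beta superfamily genes, 28 were higher and 9 at least 2-fold, with a median difference of 0.60. Ligands and their antagonists were both among these 9. *Inhba*, a subunit of activin, had 17.3 in control against 90.9 in UC-MSC, and *Fst*, follistatin, which binds activin, had 4.92 and 21.9. *Bmp4* and *Bmp7* were 2.93-fold and 2.84-fold higher, and *Grem1*, which binds BMPs, had 991, 3769.6 and 1284 in control, UC-MSC and AD-MSC. The Wnt list had a median difference of 0.55, with 18 of 23 higher. Its 3 genes at 2-fold were *Sfrp1* and *Sfrp4*, secreted Wnt inhibitors, and *Rspo3*, a Wnt enhancer, at 2.88-fold, 2.08-fold and 2.12-fold. *Wnt5a*, a ligand of the stroma, was 1.87-fold higher. Hedgehog genes had a median difference of 0.11.

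Heat shock genes were lower in UC-MSC, but not all of them. Of 30 genes compared, 22 were lower and 11 at least 2-fold, with a median difference of -0.56 beside -0.55 in AD-MSC. The inducible HSP70 genes *Hspa1a* and *Hspa1b* had 439 and 2241 in control, 42.8 and 303 in UC-MSC, and 115 and 758 in AD-MSC. They are nearly identical in sequence, so their reads may be split between them. *Hspa8*, the constitutive HSP70, had 8932 in control against 3145 in UC-MSC, 2.84-fold lower (2.77 to 2.92). Its co-chaperones *Dnaja1* and *Dnajb1* were 3.02-fold and 2.51-fold lower, and the disaggregase partner *Hsph1* 2.43-fold lower. *Hsp90aa1*, the inducible HSP90, was 2.06-fold lower and *Hsp90ab1*, the constitutive form, 1.48-fold lower. *Hspd1* and *Hspe1*, which share the stretch of promoter printed above, were 2.09-fold and 2.03-fold lower. The 4 genes with the heat shock letters had a median difference of -1.17 and the 20 matched genes without them -0.49.

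The small heat shock proteins of muscle went the other way. *Hspb7* had 263 in control, 677 in UC-MSC and 252 in AD-MSC, *Hspb6* had 161, 269.7 and 182, and *Cryab* had 146, 238 and 160.1. The smooth muscle list, given above, was higher alongside them, and its part in their values was not tested. *Hsf1*, the main heat shock factor, was 1.41-fold lower. The unfolded protein response of the endoplasmic reticulum had a median difference of -0.23, with 20 of 23 genes lower and none at 2-fold, beside -0.52 in AD-MSC. *Hspa5*, its central chaperone, had 10917, 7782 and 5183, and *Herpud1* was 1.71-fold lower. Immediate early genes had a median difference of 0.05 in UC-MSC and -0.51 in AD-MSC, with *Egr1* at 1418, 1178 and 764 and *Fosb* at 133, 165 and 44.4.

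Genes of cell division were lower, with unlike sizes for mitosis and for DNA replication. All 30 mitosis genes compared were lower in UC-MSC, 13 at least 2-fold, with a median difference of -0.94, and the median in AD-MSC was -0.03. *Mki67* had 2443 normalized reads in control, 1133 in UC-MSC and 2442 in AD-MSC, 2.16-fold lower in UC-MSC (2.06 to 2.26). *Top2a*, which untangles chromosomes, had 855, 428 and 839. For both, AD-MSC was close to control. *Ccnb1*, the cyclin of mitotic entry, was 2.84-fold lower and *Bub1*, of the spindle checkpoint, 3.33-fold lower. *Kif11* and *Cdc20*, whose promoters are shown above, were 2.22-fold and 2.18-fold lower. The smallest difference was that of the kinase *Plk1*, at 349 and 292. Mitosis genes with the TTTGAA letters had a median difference of -0.89 and those without a median difference of -1.12.

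Of 28 DNA replication genes, 23 were lower, with a median difference of -0.23 and none at 2-fold. *Tyms*, which makes thymidylate, was 1.78-fold lower, *Mcm7*, of the replicative helicase, 1.39-fold lower, and *Cdc6*, which loads the helicase, 1.59-fold higher. Histone genes expressed during replication had a median difference of -0.41, with 17 of 20 lower. *Hist1h2ab* had 93.2 and 34.6, and *Hist1h1a* 91.7 and 39.7. Histone genes are alike in sequence and their values are less certain.

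Amino acid metabolism held some of the genes furthest from control in both directions. Of 19 genes of arginine, urea and sulphur amino acids, 5 were lower by 2-fold or more and 1, *Arg1*, was higher by as much, with a median difference of -0.19. *Otc* and *Cps1*, which make citrulline in mitochondria, had 21.6 and 52.3 in control and 1.85 and 11.8 in UC-MSC. AD-MSC had 22.6 and 13.3, close to control for *Otc* and to UC-MSC for *Cps1*. *Cbs* and *Cth*, which turn homocysteine into cysteine, were 3.54-fold and 1.88-fold lower, and *Cdo1*, which oxidizes cysteine, 6.31-fold lower. For *Cbs* the levels were 89.2 in control, 25.2 in UC-MSC and 119 in AD-MSC. *Gatm*, of creatine synthesis, was 2.67-fold lower. *Nos2*, the inducible nitric oxide synthase, which shares its substrate with arginase, differed by 0.28.

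Fatty acid and cholesterol synthesis had a median difference of -0.28, with 20 of 27 genes lower. *Fasn*, fatty acid synthase, had 1926 in control against 947 in UC-MSC, and *Scd1*, a desaturase, was 1.95-fold lower. *Acacb*, whose product restrains fatty acid oxidation, was higher, at 166 and 328. Fatty acid oxidation had a median difference of -0.15 beside 0.34 in AD-MSC. *Pdk4*, which restrains glucose oxidation, had 29.3 in control, 77.3 in UC-MSC and 75.8 in AD-MSC. Hypoxia and glycolysis genes had a median difference of 0.05, and the 4 at 2-fold were *Ndrg1*, *Slc16a3*, *Car12* and *Ankrd37*. *Slc16a3*, which exports lactate, had 17.7 and 40.8.

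Detoxifying enzymes of the epithelium were lower more often than higher. Of 27 glutathione and Nrf2 genes, 21 were lower, with a median difference of -0.32. *Gsta3* and *Gstm3*, glutathione transferases, were 7.65-fold and 3.32-fold lower, *Gpx2*, the epithelial glutathione peroxidase, had 846 and 403, and *Nqo1* was 2.22-fold lower. *Hmox1*, the haem-degrading enzyme strongly expressed by macrophages, was 2.14-fold higher, and *Sod3*, of the matrix, 2.17-fold. Of 27 cytochrome P450 and conjugation genes, 6 were at least 2-fold lower, among them *Cyp2e1* at 88.0 and 26.7. *Cyp2c65* was higher in both MSC groups, at 8.57 in control, 73.6 in UC-MSC and 78.2 in AD-MSC, while its relative *Cyp2c68* was 2.54-fold lower in UC-MSC. Reads of such families may be split among members.

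Hormone and lipid signals were mostly close to control, with a few genes far from it. *Aldh1a3*, which makes retinoic acid, had 99.0 in control, 719 in UC-MSC and 72.6 in AD-MSC, 7.26-fold above control (6.46 to 8.17). *Dio2*, which activates thyroid hormone, had 3.99, 37.4 and 16.1, and *Hsd11b1*, which regenerates active glucocorticoid, had 11.9, 28.9 and 14.0. Each of these enzymes makes the active form of its hormone. The opposing enzyme *Hsd11b2* was lower by 1.32-fold, and *Nr5a2*, a regulator of steroid synthesis in the gut, had 356 and 179. Among eicosanoid genes, the prostacyclin receptor *Ptgir* had 7.16 and 31.6, and prostacyclin synthase *Ptgis* had 42.8 and 92.4. The prostaglandin E genes *Ptges* and *Ptger2*, a synthase and a receptor, were 1.74-fold and 2.29-fold higher.

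Genes of the circadian clock differed in direction. *Dbp*, *Tef* and *Hlf*, related output factors, were 3.74-fold, 2.19-fold and 1.92-fold higher, with *Dbp* at 30.4 in control, 114 in UC-MSC and 40.5 in AD-MSC. The repressors *Nr1d1* and *Nr1d2* were 1.90-fold and 1.92-fold higher. The activators *Clock* and *Arntl* were both lower, at -0.47 and -0.47, as was *Cry1*, another repressor, at -0.66. *Per1* and *Per2* were close to control, at 0.19 and 0.08. Output and activator genes thus stood on opposite sides of control. The time of day at which tissue was taken is not given in the sources used here. The glucocorticoid-responsive genes *Fkbp5* and *Tsc22d3* differed by -0.10 and -0.21, and *Mt2*, a metallothionein, by 1.33.

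Genes for the machinery of protein synthesis and respiration were mostly lower, by small amounts in the median. Of 45 cytosolic ribosomal protein genes, 43 were lower, with a median difference of -0.46, a range of -1.25 to 0.18 and 1, *Rps18*, at 2-fold. Of 35 mitochondrial ribosomal protein genes, 34 were lower, with a median difference of -0.47 and a range of -1.23 to 0.01. All 41 nuclear genes of oxidative phosphorylation were lower, between -0.78 and -0.24, with a median difference of -0.51. Proteasome genes had a median difference of -0.29, with 33 of 34 lower. In AD-MSC the medians were -0.29, -0.31, -0.22 and -0.29 in the same order.

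These are short genes, and the difference from control moved with transcript length across the whole table. The length used was that of the transcript with the longest coding part, known for 13256 of the genes (97.9%). Genes with a transcript under 750 bases had a median of -0.37 (275 genes), those from 1000 to 1500 bases -0.17 (1077 genes), those from 3000 to 4000 bases 0.00 (2487 genes) and those of at least 9000 bases 0.08 (516 genes). In AD-MSC the medians went from -0.23 to 0.10. The median transcript was 964 bases in the cytosolic ribosomal protein list, 1231 in the oxidative phosphorylation list and 6536 in the basement membrane list. The lower lists of this paragraph and the basement membrane list thus lay at opposite ends of length, while the monocyte and macrophage list, at 1576 bases, was short and higher. What part transcript length had in any list's value was not tested.

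**Figure D5:**
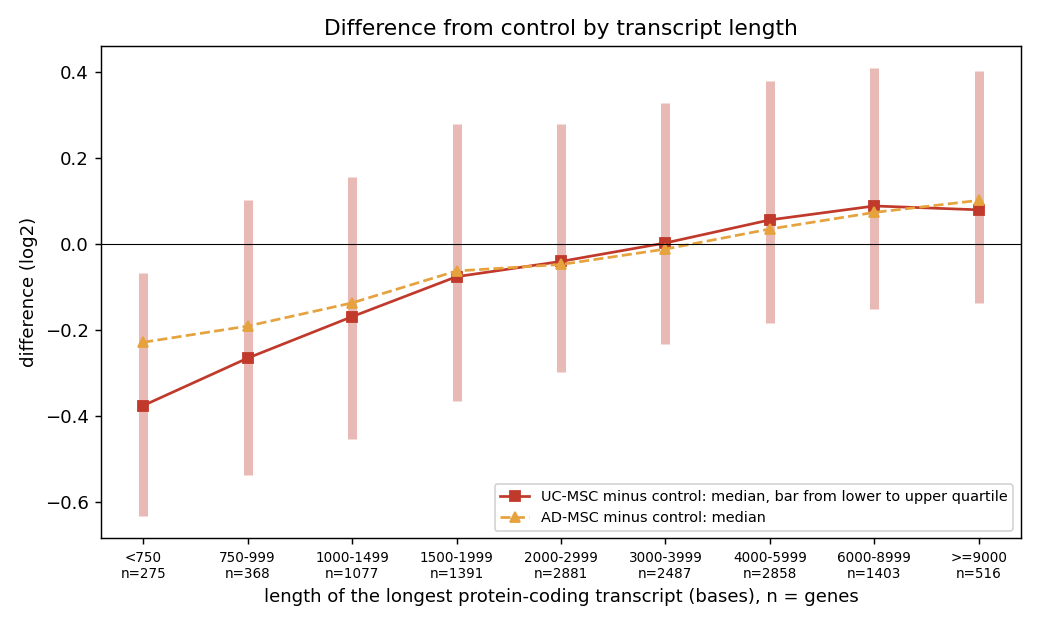
Median log2 difference from control by length in bases of each gene's transcript with the longest coding part (axis label: longest protein-coding transcript). UC-MSC is shown as red squares, with bars from lower to upper quartile, and AD-MSC as orange triangles, with the number of genes under each bin. The UC-MSC median climbs from -0.37 under 750 bases to 0.08 at 9000 bases and over, and the AD-MSC median runs close to it.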

How the data were processed

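Total RNA of the medial colon was sequenced from 3 groups of 3 libraries by the authors (SMARTer Stranded Total RNA-Seq Pico kit, HiSeq2500), who left out samples of low RNA integrity. Reads were processed with bcl2fastq 1.8.4 and DESeq on GRCm38/mm10 according to the submitters' notes, and with Strand NGS according to the methods. For the aligner and the use of strand, details were not given in the sources used here. The deposited raw signal of a group is the authors' geometric mean of reads over libraries with reads, and the deposited log2 value is the authors' mean over 3 libraries of log2 normalized reads, with values under 1 set to 1. Both readings rest on the values themselves. Among genes with over 50 raw reads, the log2 raw and log2 normalized values differed by a constant, within 0.01, for 99.97% of control and 99.79% of UC-MSC genes.

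Log2 group means were subtracted, with no test, and a gene was called at 2-fold or more. The smallest counting error came from the Poisson variance of log reads in both groups, the root of the sum of 1/(3 × raw reads), for genes with reads in all 3 libraries (13505 of 13537), with a 95% interval. It covers counting error only and is a lower limit. Named genes were the 15 furthest from control in each direction, the same among genes with a mean of at least 500, up to 4 per list, and genes whose promoter is shown. Further list members were named for their roles after their values were seen, as were the Hox genes. Members, lists and rules were chosen with earlier results of these data known. Predicted genes were left out. Transcript lengths are those of GENCODE M21, used in place of a planned protein length. Promoters are those of RefSeq (GRCm38.p6), matched by symbol. Steps were tested on simulated data. Python 3.11.15, numpy 2.4.6 and pandas 2.3.3 were used.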

Additional observations from a re-analysis of the deposited data

How the results depend on the processing

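The counts at 2-fold depended on how genes with few reads were treated. A pseudocount of 10 gave 310 genes higher and 152 lower, a minimum mean of 50 gave 284 and 145 (of 10180 genes), and no minimum gave 1183 and 764 (of 19360 genes). The main counts were 635 and 323. Scaling to equal totals gave 539 and 379, so that 58.7% rather than 66.3% were higher. Centring on the median gave 657 and 313, reads in all 3 libraries 620 and 308, and all gene types 765 and 399. Equal totals lowered each difference by about 0.06. As a result 4 of 15 lists with all compared genes higher lost 1 or 2 of them (IL-6 family, fibroblast, enteric neuron and squamous genes). Of 447 list medians recomputed, 6 changed sign, in 5 lists whose main median lay within 0.06 of 0. With equal totals the medians of tuft cell, tight junction, immediate early and hypoxia genes went from between 0.05 and 0.06 to between -0.01 and 0, and that of crypt stem cell genes went from -0.01 to 0.11 with no minimum and to just above 0 when centred. In 4 lists a median shifted by more than 0.5 towards 0. With a pseudocount of 10 the neutrophil median went from 1.57 to 0.98, the mesothelial from -1.45 to -0.91 and the pancreatic acinar from 3.11 to 1.38. With reads in all 3 libraries the last pair went to -0.52 and 0.70, and with a minimum mean of 50 the adipocyte median went from -1.35 to -0.69. The mitochondrial ribosomal median was -0.53 with equal totals, outside the 95% order-statistic interval of its main value. None of the 59 genes named by size changed direction. Of 384 values of these genes, 50 moved, lying beyond their counting interval or having none. No paired analysis was possible because the table holds 1 mean per group, and for the same reason no replicate could be left out. The variation between mice is unknown, and low-count genes are the least certain.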
